A study of Mus musculus with 6 samples.

Results

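Macrophages grown from mouse bone marrow with GM-CSF (GM-BMDM) were compared with the uncultured bone marrow cells (BM) by RNA sequencing. The comparison takes 2 of the 6 libraries of the series, those labelled GM-BMDM without interleukin-6 (IL6) and BM, and it takes every row of the deposited gene table that carries a gene name. The GM-BMDM were marrow cells of C57BL/6 mice aged 8 weeks that had been kept with GM-CSF for 7 days and given no IL6. The BM sample was marrow of mice of the same strain and age, with no culture and no cytokine. The labels list no mutation and no transgene in either group. Each group had 1 library, and the labels do not say how many animals were pooled or whether libraries came from separate cultures. No p-value can therefore be given, and every difference below is a difference between 2 libraries. Where levels of M-BMDM (marrow kept for 7 days with M-CSF) or of GM-BMDM after 3 h of IL6 are given, they come from the corresponding libraries of the series, also 1 each.

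GM-CSF, encoded by Csf2, is a cytokine that acts on myeloid cells. It binds a receptor made of a specific alpha chain and a shared beta chain, which carries the kinase JAK2 and activates the transcription factor STAT5; the genes STAT5 switches on include inhibitors of the same pathway. In mice the cytokine is needed for alveolar macrophages, the lipid-handling macrophages of the lung, where it acts through the nuclear receptor PPARγ. Marrow cultured with GM-CSF is known to give a mixed adherent and loosely attached population with features of macrophages and of dendritic cells. Fresh marrow holds red cell precursors, developing neutrophils, B cell precursors, stem and progenitor cells and stroma.

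The named rows held 24134374 counts in the GM-BMDM library and 21484966 counts in the BM library. Of 55536 named rows, 23214 had a count in either library, and 11367 reached 5 CPM, counts scaled to a common depth, in the higher one. The depth was set with TMM, a method that assumes that most genes do not differ. A ratio is GM-BMDM over BM, so a log2 ratio of 1 is a level 2-fold higher in GM-BMDM and one of -1 a level 2-fold lower. Each ratio has an exact 95% Clopper-Pearson interval that covers counting error only, since each group had 1 library. Reads amplified by PCR without molecular identifiers are not independent molecules, so the intervals may be too narrow even for that error. To be counted as higher or lower, a gene needed a difference of at least 2-fold, an interval that excluded no difference and at least 5 CPM in the higher library. By this rule 2250 genes were higher in GM-BMDM (19.8% of the genes compared), 2534 were lower (22.3%), and 6583 were neither, so that 42.1% were counted in either direction. Leaving out the interval gave the same counts of higher and lower genes. Over the 11367 genes the median log2 ratio was -0.04, and the quartiles were -0.86 and 0.74. When the libraries were scaled to their total counts instead, the median shifted by -0.35, and 1692 genes were higher and 3450 lower, so that 32.9% of the counted genes were higher, against 47.0% with TMM. In bulk samples, fewer cells of a type and less RNA per cell cannot be told apart.

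The labelled cell type was checked against a list of 26 macrophage markers. Of the 25 that reached 5 CPM, 22 were higher in GM-BMDM, 2 were neither and 1 was lower. The median of their log2 ratios was 2.70. The list held 6.81% of all counts in GM-BMDM and 0.836% in BM. Cd68, an endosomal glycoprotein of macrophages, had 1016 CPM in GM-BMDM and 62.8 CPM in BM, and Adgre1, which encodes F4/80, had 257 CPM in GM-BMDM and 64.1 CPM in BM. Markers of other marrow cells were mostly low in GM-BMDM. The 25 erythroid genes in the table held 0.0133% of its counts, against 9.79% in BM. Ly6g, which marks neutrophils, had 0 counts in GM-BMDM and 133 CPM in BM. Some members of other marrow lists were not lower, among them Mmp8, Kit and Vwf, as given below. On the macrophage and erythroid lists and Ly6g both libraries matched their labels, though the lists were chosen with earlier results of these data known.

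**Figure D1:**
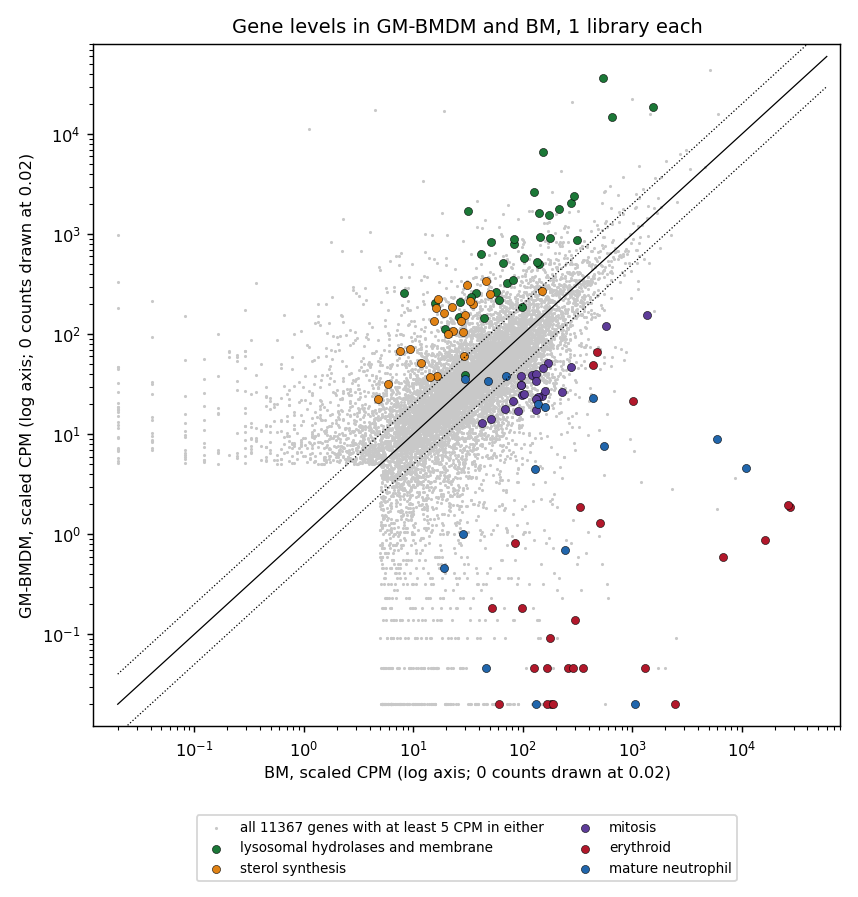
Scaled CPM of the 11367 genes in GM-BMDM (vertical, log axis) against BM (horizontal, log axis), 1 library each; the solid line marks equal levels and the dotted lines 2-fold. Lysosomal and sterol synthesis genes lie above the upper dotted line with 3 exceptions, mitosis genes lie below the lower one, and the erythroid genes with a count in both libraries have log2 ratios between -14.80 and -2.87.

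Large differences were found in both directions. At least 16-fold higher levels were found for 325 genes and at least 16-fold lower levels for 564, and at least 1024-fold differences for 8 higher and 35 lower genes. Of the genes compared, 27 had no count in BM and 142 had none in GM-BMDM. The genes counted as higher held 54.8% of the counts of GM-BMDM and 11.8% of those of BM. The genes counted as lower held 4.44% of the counts of GM-BMDM and 37.0% of those of BM. Of 10882 protein-coding genes, 2168 were higher (19.9%) and 2316 lower (21.3%). Of 115 long intergenic RNAs, 17 were higher (14.8%) and 53 lower (46.1%).

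Measured per length, as TPM (transcript abundance scaled to a common total), the libraries differed in most of their highest genes. In GM-BMDM the highest values were those of Lyz2 (lysozyme) at 56015 TPM, Fth1 (ferritin heavy chain) at 40015, Ctsd (cathepsin D) at 28538, Ftl1 (ferritin light chain) at 27542, Ccl6 (a chemokine) at 24238 and Spp1 (osteopontin) at 20139. In BM they were the globins Hba-a2 at 88368 TPM, Hbb-bs at 75218 and Hba-a1 at 41919.9, then the calprotectin subunits S100a9 at 37818 and S100a8 at 21883. Among the 15 highest genes of each library, Lyz2, the mitochondrial gene mt-Co1 and the mitochondrial look-alike Gm28661 stood in both. The paired globin genes are near-identical copies, so how reads were split between them is uncertain.

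The start regions of genes from 5 of the groups described below are shown because each gene carries a short motif known for its pathway. The lysosomal and sterol synthesis groups were mostly higher in GM-BMDM and the erythroid group was lower. GM-CSF signalling genes (5 higher, 2 lower, 5 neither) and interferon-stimulated genes (4 higher, 10 lower, 18 neither) stood on no single side. The windows are RefSeq promoters of build GRCm38.p6, from 250 bases before to 50 bases after the start site, written 5′ to 3′ on the gene's strand. Capitals mark the motif, read on both strands. Motifs and genes were chosen after the levels were seen, and a match describes letters and not a bound site.
Cish, a STAT5 target, chr9:107296409-107296708, plus strand, capitals mark TTCNNNGAA: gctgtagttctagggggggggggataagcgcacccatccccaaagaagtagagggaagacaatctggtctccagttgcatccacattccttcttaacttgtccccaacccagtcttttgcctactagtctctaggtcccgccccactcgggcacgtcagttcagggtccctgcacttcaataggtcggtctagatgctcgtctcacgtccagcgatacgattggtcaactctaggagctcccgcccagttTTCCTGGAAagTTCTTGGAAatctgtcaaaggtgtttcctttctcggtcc
Ctsd, a lysosomal protease, chr7:142387778-142388077, minus strand, capitals mark CACGTG: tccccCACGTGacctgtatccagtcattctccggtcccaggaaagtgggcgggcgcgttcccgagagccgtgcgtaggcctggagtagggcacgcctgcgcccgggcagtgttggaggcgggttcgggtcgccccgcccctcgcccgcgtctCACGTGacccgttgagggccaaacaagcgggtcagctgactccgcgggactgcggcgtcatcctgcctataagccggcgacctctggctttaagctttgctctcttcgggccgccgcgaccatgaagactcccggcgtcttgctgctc
Cyp51, a sterol synthesis enzyme, chr5:4104648-4104947, minus strand, capitals mark CCAAT: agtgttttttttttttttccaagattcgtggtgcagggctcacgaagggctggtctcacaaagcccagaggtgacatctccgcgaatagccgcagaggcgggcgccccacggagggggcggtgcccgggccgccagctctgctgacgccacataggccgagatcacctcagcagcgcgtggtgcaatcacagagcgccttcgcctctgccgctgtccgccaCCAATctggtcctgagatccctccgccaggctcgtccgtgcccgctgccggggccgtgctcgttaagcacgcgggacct
Rsad2, an interferon-induced gene, chr12:26456403-26456702, minus strand, capitals mark GAAANNGAA read on the other strand: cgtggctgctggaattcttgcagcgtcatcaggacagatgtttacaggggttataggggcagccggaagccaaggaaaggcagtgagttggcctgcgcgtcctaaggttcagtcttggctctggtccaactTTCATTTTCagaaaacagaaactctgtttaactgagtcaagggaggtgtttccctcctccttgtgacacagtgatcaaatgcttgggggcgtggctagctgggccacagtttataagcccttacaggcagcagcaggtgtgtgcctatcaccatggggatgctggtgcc
Alas2, a heme synthesis enzyme of red cells, chrX:150547167-150547466, plus strand, capitals mark AGATAA read on the other strand: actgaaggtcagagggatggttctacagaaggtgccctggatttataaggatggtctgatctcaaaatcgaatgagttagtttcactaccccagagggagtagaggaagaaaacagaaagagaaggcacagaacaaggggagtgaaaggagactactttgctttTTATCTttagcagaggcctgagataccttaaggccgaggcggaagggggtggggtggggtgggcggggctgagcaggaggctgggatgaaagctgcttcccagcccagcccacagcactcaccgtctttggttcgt

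TTCNNNGAA is the palindrome recognised by STAT factors. It occurred in the windows of 7.82% of the higher genes, 7.43% of the lower ones, 8.11% of the 8867 genes compared that had a promoter in the table, and 9.55% of all 27025 genes with one. In the Cish window it stands at the start site and again 11 bases on. CACGTG is the core of the element bound by TFEB, TFE3 and MITF at lysosomal genes. Its share was 14.3% among the higher genes, 9.25% among the lower, 12.2% over the genes compared and 8.09% over all promoters, and 9 of the 29 lysosomal genes with a promoter held it (31.0%). CCAAT, the box bound by NF-Y, stood in 16 of 17 sterol synthesis genes (94.1%), in 40.7% of the higher genes, in 47.8% of the lower genes, in 43.2% of the genes compared and in 41.1% of all promoters. GAAANNGAA, from the core of the interferon-stimulated response element, stood in 15 of 25 interferon-stimulated genes (60%), in 9.21% of the higher genes, in 9.77% of the lower genes, in 9.03% of the genes compared and in 9.76% of all promoters. AGATAA, the motif bound by the GATA factors of red cells, stood in 8 of 18 erythroid genes (44.4%), in 6.95% of the higher genes, in 10.9% of the lower genes, in 7.92% of the genes compared and in 12.7% of all promoters. Any overlap of a match with another motif was not removed.

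Csf2ra and Csf2rb, which encode the GM-CSF receptor, were higher in GM-BMDM, as was Csf2rb2, a related beta chain. Positions are those of the GENCODE annotation on GRCm38. Csf2ra (the alpha chain, chromosome 19, 61223957 to 61228429) had 554 CPM in GM-BMDM and 209 CPM in BM, a log2 ratio of 1.41 (95% interval 1.36 to 1.45). Csf2rb (the shared beta chain, chromosome 15, 78325752 to 78353847) had 2628 CPM in GM-BMDM and 184 CPM in BM, a log2 ratio of 3.84 (3.79 to 3.88). Csf2rb2, its neighbouring copy in the mouse, used by IL3 (chromosome 15, 78282507 to 78305721), had 1162 CPM in GM-BMDM and 43.0 CPM in BM, a log2 ratio of 4.76 (4.67 to 4.85). When the libraries were scaled to their total counts less haemoglobin and mitochondrial genes, the log2 ratio of Csf2ra was 0.96, below 2-fold, and both beta chains stayed above it. The beta chains thus differed far more than the alpha chain did, though the 2 copies are so alike that reads may be split between them wrongly. Per length, Csf2rb stood at 918 TPM in GM-BMDM and 68.4 TPM in BM, and Csf2ra at 498 TPM in GM-BMDM and 201 TPM in BM. Il3ra, the alpha chain of the IL3 receptor, was also higher, with 45.6 CPM in GM-BMDM and 15.6 CPM in BM.

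Inside the pathway the kinase and the transcription factors were not higher, while their inhibitors were. Of 12 genes of GM-CSF signalling, 5 were higher, 2 lower and 5 neither, and the median log2 ratio was -0.11. Jak2, the kinase on the beta chain, had 92.9 CPM in GM-BMDM and 98.4 CPM in BM, and Stat5a had 41.6 CPM in GM-BMDM and 45.6 CPM in BM. Stat5b was lower, with 57.2 CPM in GM-BMDM and 120.3 CPM in BM, a log2 ratio of -1.07 (-1.17 to -0.98). Lyn, a Src family kinase, Bcl2l1, which encodes the survival protein BCL-XL, and Osm, the cytokine oncostatin M, had log2 ratios of -0.30, -0.35 and -0.30 and were neither.

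Cish, the feedback inhibitor that STAT5 induces (chromosome 9, 107296026 to 107302784), had 174 CPM in GM-BMDM and 5.92 CPM in BM, a log2 ratio of 4.88 (4.64 to 5.13). Its level was 172 CPM in GM-BMDM after 3 h of IL6 and 0.966 CPM in M-BMDM, so that it was high in both GM-CSF libraries and low in the other 2. Socs2, an inhibitor of the same family, was also high in both GM-CSF libraries, with 54.6 CPM in GM-BMDM, 60.8 CPM after IL6, 2.09 CPM in M-BMDM and 3.33 CPM in BM. Socs3, which restrains the IL6 receptor, was high in both kinds of macrophage, with 142 CPM in GM-BMDM, 102 CPM in M-BMDM and 15.5 CPM in BM. Socs1 had 19.9 CPM in GM-BMDM and 4.90 CPM in BM. The Pim kinases, survival kinases that STAT5 induces, stood on opposite sides: Pim1 had 312 CPM in GM-BMDM and 120.1 CPM in BM, and Pim2 2.81 CPM in GM-BMDM and 17.5 CPM in BM. With total counts less haemoglobin and mitochondrial genes, Pim1 was not 2-fold higher. Of the 9 genes of this list with a promoter, Cish and Socs3 held TTCNNNGAA in the window.

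**Figure D2:**
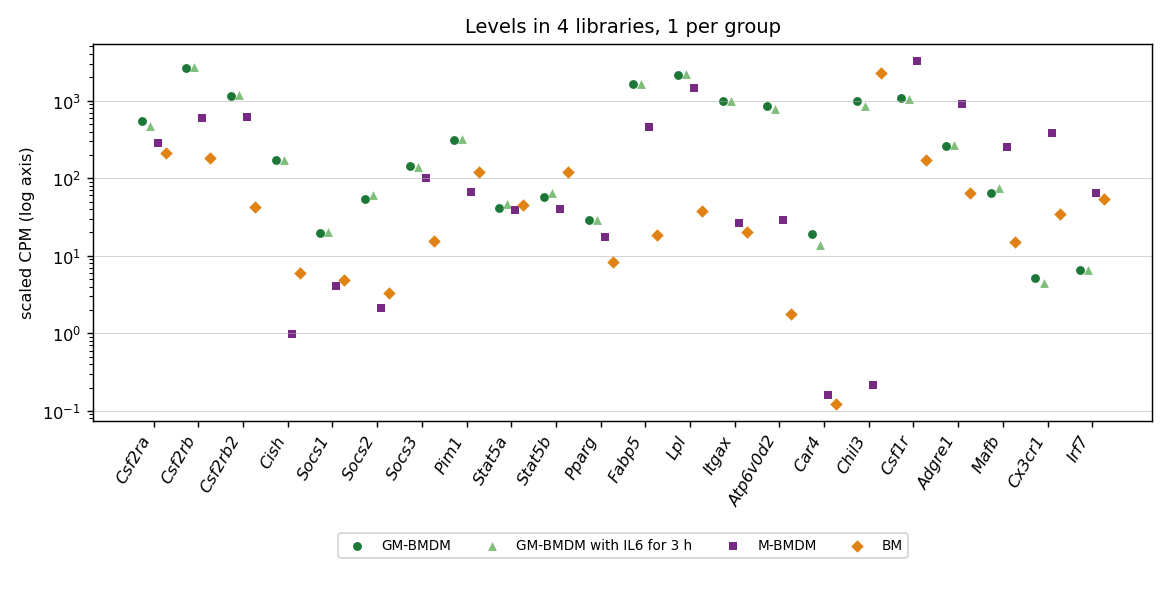
Scaled CPM (log axis) of 22 genes of GM-CSF signalling, of alveolar macrophages and of macrophages in general, in GM-BMDM, in the same cells after IL6, in M-BMDM and in BM, 1 library each. Cish and Socs2 stand above 50 CPM in both GM-CSF libraries and below 6 CPM in M-BMDM and BM.

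Growth factor and chemokine receptors of blood cell lineages were mostly lower. Of 13 such receptors, 9 were lower, 3 higher and 1 neither, and the list includes the monocyte receptor Cx3cr1 given below. Csf3r, the receptor of G-CSF that drives neutrophil production, had 7.68 CPM in GM-BMDM and 554 CPM in BM, a log2 ratio of -6.17 (-6.40 to -5.95). The erythropoietin receptor Epor had 0.184 CPM in GM-BMDM and 52.8 CPM in BM, Flt3, of early progenitors and dendritic cells, 0.322 CPM in GM-BMDM and 25.3 CPM in BM, and the chemokine receptor Cxcr2 of neutrophils 0.69 CPM in GM-BMDM and 246 CPM in BM. Il5ra, of eosinophils, had 1 count in GM-BMDM, and 15.3 CPM in BM. The higher ones were Csf1r, the M-CSF receptor, at 1068 CPM in GM-BMDM and 171 CPM in BM, Il3ra as above, and Il7r, at 363 CPM in GM-BMDM and 34.9 CPM in BM. IL7R is best known from lymphocytes; the B lineage list held 0.0241% of the counts in GM-BMDM and 0.5% in BM, the T and NK list 0.000928% in GM-BMDM and 0.0191% in BM, and the part of such cells in the Il7r level was not tested. Kit, the stem cell factor receptor, was neither higher nor lower, with 83.3 CPM in GM-BMDM and 62.8 CPM in BM, and M-BMDM had 4.89 CPM.

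A pair of chemokine receptors of monocytes was lower in GM-BMDM. Ccr2 had 19.8 CPM in GM-BMDM, 4.62 CPM in M-BMDM and 184 CPM in BM. Cx3cr1 had 5.15 CPM in GM-BMDM and 34.4 CPM in BM, a log2 ratio of -2.74 (-3.04 to -2.45), while M-BMDM had 388 CPM. Both cultures were low in Ccr2, and GM-BMDM was the lowest of these 3 libraries in Cx3cr1.

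Transcription factors of macrophages were mostly higher and those of other lineages mostly lower. Of 25 factors of myeloid cells and macrophages, 14 were higher, 4 lower and 7 neither (median log2 ratio 1.69). Egr2, an early growth response factor, had 129 CPM in GM-BMDM and 1.28 CPM in BM, a log2 ratio of 6.66 (6.15 to 7.22). Bhlhe41 and Bhlhe40, a pair of repressors needed for the self-renewal of alveolar macrophages, had 257 and 448 CPM in GM-BMDM and 3.00 and 24.0 CPM in BM. Mitf and Tfec, of the family that binds CACGTG, were higher, with log2 ratios of 3.62 (3.35 to 3.89) and 2.29 (2.12 to 2.46), while Tfeb, of the same family, was neither (0.14). Pparg had 29.2 CPM in GM-BMDM and 8.23 CPM in BM, a log2 ratio of 1.83 (1.6 to 2.06). Nr1h3, which encodes the oxysterol receptor LXRα, had 20.8 CPM in GM-BMDM and 2.63 CPM in BM.

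Spi1, which encodes the myeloid master factor PU.1, was neither, with 366 CPM in GM-BMDM and 231 CPM in BM. The 4 lower members were Klf2 (-1.88), Cebpd (-1.58), Zbtb46 (-1.44) and Irf8 (-1.23), values on the log2 scale; Zbtb46 marks classical dendritic cells and Irf8 drives monocytes and dendritic cells. The C/EBP family split. Cebpb and Cebpa were higher, with log2 ratios of 2.62 and 1.59, and Cebpe, which drives the last steps of neutrophil granule formation, had 2.25 CPM in GM-BMDM and 147 CPM in BM.

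Of 18 factors of other lineages, 17 reached 5 CPM; 14 were lower, 3 were neither and none was higher, with a median log2 ratio of -5.56. Pax5 and Ebf1, of B cells, had 0.138 and 0.138 CPM in GM-BMDM and 137 and 45.3 CPM in BM. Klf1 and Gata1, of red cells, had 0.184 and 0.828 CPM in GM-BMDM and 99.4 and 85.3 CPM in BM. Myb, of dividing progenitors, had 0.736 CPM in GM-BMDM and 190.0 CPM in BM. The 3 that were neither were Runx1, Meis1 and Sox4.

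Among the macrophage markers themselves the range was wide. Gpnmb, a glycoprotein of lysosome-rich macrophages, had 17423 CPM in GM-BMDM and 4.48 CPM in BM, a log2 ratio of 11.92 (11.65 to 12.21). Trem2, a lipid-sensing receptor, had 472 CPM in GM-BMDM and 4.85 CPM in BM, and Cd14, the co-receptor for lipopolysaccharide, 491 CPM in GM-BMDM and 7.36 CPM in BM. Clec7a, the beta-glucan receptor dectin-1, had 1428 CPM in GM-BMDM, 128 CPM in M-BMDM and 90.2 CPM in BM. The complement receptor C5ar1 and the complement subunit C1qa were neither, with log2 ratios of -0.42 and 0.12. Cd163, a haemoglobin scavenger receptor of resident macrophages, was the lower marker, with 10.2 CPM in GM-BMDM and 43.0 CPM in BM. Timd4, a phosphatidylserine receptor of resident macrophages, was at 0 in GM-BMDM and at 3.91 CPM in BM, below the limit of 5 CPM.

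Genes of alveolar macrophages were mostly higher. Of 24 members 20 reached 5 CPM, and 16 of these were higher and 4 lower, with a median log2 ratio of 3.25. Atp6v0d2, a macrophage and osteoclast form of a proton pump subunit, had 847 CPM in GM-BMDM, 28.9 CPM in M-BMDM and 1.77 CPM in BM, a log2 ratio over BM of 8.90 (8.47 to 9.37). Car4, a membrane carbonic anhydrase, Plet1, a surface protein, and Slc39a2, a zinc importer, had 19.1, 56.9 and 59.0 CPM in GM-BMDM, at most 0.161 CPM in M-BMDM and at most 0.206 CPM in BM. Fabp5, a fatty acid carrier, and Lpl, lipoprotein lipase, had 1642 and 2172 CPM in GM-BMDM and 18.4 and 38.3 CPM in BM. Itgax, which encodes CD11c, had 994 CPM in GM-BMDM, 26.1 CPM in M-BMDM and 20.4 CPM in BM.

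The lower members of the alveolar list were Chil3, Ear1, Ear2 and Ear6. Chil3, a chitinase-like protein made by alveolar macrophages and by neutrophil precursors, had 982 CPM in GM-BMDM, 0.215 CPM in M-BMDM and 2286 CPM in BM. Ear2 and Ear6, ribonucleases of the eosinophil family, had 64.2 and 74.0 CPM in GM-BMDM and 377 and 367 CPM in BM, while Ear1 had 0.966 CPM in GM-BMDM and 497 CPM in BM. Ear genes are close copies, so reads may be split between them wrongly. Epx and Prg3, granule genes of eosinophils, had 0 counts in GM-BMDM and 569.9 and 90.9 CPM in BM. Krt19, Krt79, Cidec and Ear10 stayed below 5 CPM in both libraries.

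Markers of dendritic cells were found on both sides. Of 20, 19 reached 5 CPM: 11 were higher, 4 lower and 4 neither. The chemokine Ccl17 had 184 CPM in GM-BMDM and no count in BM, a level at least 1488-fold higher, and Ccl22, which binds the same receptor, had 86.8 CPM in GM-BMDM and 0.329 CPM in BM. The co-stimulatory molecules Cd80 and Cd86 had log2 ratios of 2.88 (2.60 to 3.17) and 2.33 (2.14 to 2.54). Among genes that tell dendritic subsets apart, Clec9a, of the cross-presenting subset, had 15.7 CPM in GM-BMDM and 6.46 CPM in BM, a log2 ratio of 1.28 that became 0.95, below 2-fold, with total counts. Flt3, Zbtb46, Cd209a and Siglech were lower; Siglech, of plasmacytoid dendritic cells, had 0 counts in GM-BMDM and 38.8 CPM in BM.

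MHC class II genes, which present antigen to helper T cells, were moderately higher. Of 12, 11 reached 5 CPM, and 7 were higher, 2 lower and 2 neither. H2-Aa and H2-Ab1, the chains of I-A, had 508 and 514 CPM in GM-BMDM and 179 and 179 CPM in BM, and their invariant chain Cd74 had 2039 CPM in GM-BMDM and 534 CPM in BM. The peptide loading subunits H2-DMa and H2-DMb1 were higher, with log2 ratios of 1.59 and 2.17. H2-Ob and H2-Oa, which make the loading inhibitor DO of B cells, were lower, at -4.23 and -1.38. Ciita, the activator of the class, was neither (0.52). These gene copies are alike, so single values are uncertain.

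Lysosomal genes were higher almost throughout. Of 36 hydrolases and membrane proteins, all of which reached 5 CPM, 34 were higher and 2 were neither, and their log2 ratios ran from 0.40 to 6.06 with a median of 2.92. Together they held 9.16% of all counts in GM-BMDM and 0.693% in BM. Ctsd, the aspartic protease whose promoter is printed above, had 36474 CPM in GM-BMDM, 10105 CPM in M-BMDM and 547 CPM in BM, a log2 ratio over BM of 6.06 (6.03 to 6.08). The cysteine proteases followed: Ctsl, Ctss and Ctsb had log2 ratios of 5.76, 5.43 and 4.50. Gla, alpha-galactosidase A, had 258 CPM in GM-BMDM and 8.23 CPM in BM, and Lipa, which frees cholesterol from its esters, 838 CPM in GM-BMDM and 51.9 CPM in BM. Smpd1, acid sphingomyelinase, was among the 2 that were neither (0.40).

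The proton pump that acidifies the lysosome was higher as well. Of 18 subunits of the V-ATPase, 17 were higher and Atp6v0a2 was neither (0.44), with a median log2 ratio of 1.94. With total counts 15 were higher, and with total counts less haemoglobin and mitochondrial genes 14 were. Apart from Atp6v0d2, described above, the log2 ratios were at most 2.68, the value of Atp6v0c, which forms the proton channel. Tcirg1, the a3 subunit of osteoclasts and macrophages, had 637 CPM in GM-BMDM and 147 CPM in BM.

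The cholesterol synthesis pathway was higher almost throughout. Of 25 genes 24 reached 5 CPM, and of these 23 were higher, 1 was neither and none was lower (median log2 ratio 2.42). With total counts 21 were higher, and with total counts less haemoglobin and mitochondrial genes 20 were. Cyp51, lanosterol demethylase, had 224 CPM in GM-BMDM and 17.0 CPM in BM, a log2 ratio of 3.73 (3.58 to 3.87). The early enzyme Hmgcs1, HMG-CoA synthase, had 309 CPM in GM-BMDM and 30.7 CPM in BM. Squalene epoxidase Sqle had a log2 ratio of 3.49 (3.34 to 3.64) and the last reductase Dhcr7 a log2 ratio of 3.14 (2.98 to 3.30). Srebf2, the transcription factor that controls these genes, was the gene that was neither (0.84).

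The cholesterol efflux genes Abca1 and Abcg1 were higher in the same library. Abca1 had 128 CPM in GM-BMDM and 23.7 CPM in BM. Abcg1 had 376 CPM in GM-BMDM, 16.3 CPM in M-BMDM and 48.0 CPM in BM, a log2 ratio over BM of 2.97 (2.88 to 3.06). Apoe, an apolipoprotein, was neither, with 499 CPM in GM-BMDM, 4690.0 CPM in M-BMDM and 312 CPM in BM. Of the 20 lipid storage and export genes, 19 reached 5 CPM, with 12 higher, 3 lower and 4 neither. The droplet coat Plin2 was higher (4.0), as was Soat1, which esterifies cholesterol (2.92), while the triglyceride enzymes Dgat1 and Dgat2 were lower (-1.41 and -3.64), as was Mylip (-1.93), a ubiquitin ligase.

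Fatty acid synthesis was higher in part: of 12 genes 7 were higher and 5 neither. Me1, the malic enzyme that supplies NADPH, had 16.1 CPM in GM-BMDM and 0.165 CPM in BM, and the desaturase Scd2 had 463 CPM in GM-BMDM and 113 CPM in BM. Fasn, fatty acid synthase, had a log2 ratio of 1.34, and fell below 2-fold with total counts less haemoglobin and mitochondrial genes.

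Enzymes of mitochondrial fuel use differed little between the libraries. Of 16 fatty acid oxidation genes, 15 were neither and 1 was higher. None of the 16 genes of the tricarboxylic acid cycle was counted, and their log2 ratios ran from -0.20 to 0.90. The median of this group was 0.31 with TMM and -0.02 when libraries were scaled to their total counts, so its direction depended on the scaling. The genes of the mitochondrial genome were higher in 8 of 12 cases with TMM and in 3 with total counts, without a lower one in either; their share of the counts was 3.09% in GM-BMDM and 1.62% in BM. mt-Atp6 was at 0 in both libraries, and its look-alike Gm28661 had 15358 TPM in GM-BMDM and 7147 TPM in BM.

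Glycolysis genes stood on both sides. Of 19, 9 were higher, 3 lower and 7 neither, and with total counts 4 were higher and 5 lower. Slc2a1, the glucose transporter GLUT1, had 203 CPM in GM-BMDM and 21.7 CPM in BM, a log2 ratio of 3.22 (3.09 to 3.36). The forms of phosphofructokinase stood on opposite sides: Pfkp had 298 CPM in GM-BMDM and 51.2 CPM in BM, and Pfkm 8.88 CPM in GM-BMDM and 29.9 CPM in BM. Hk1, a hexokinase, and Pfkfb3, which makes an activator of phosphofructokinase, were lower (-1.05 and -1.20), though Hk1 missed 2-fold with upper-quartile factors (-0.99).

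**Figure D3:**
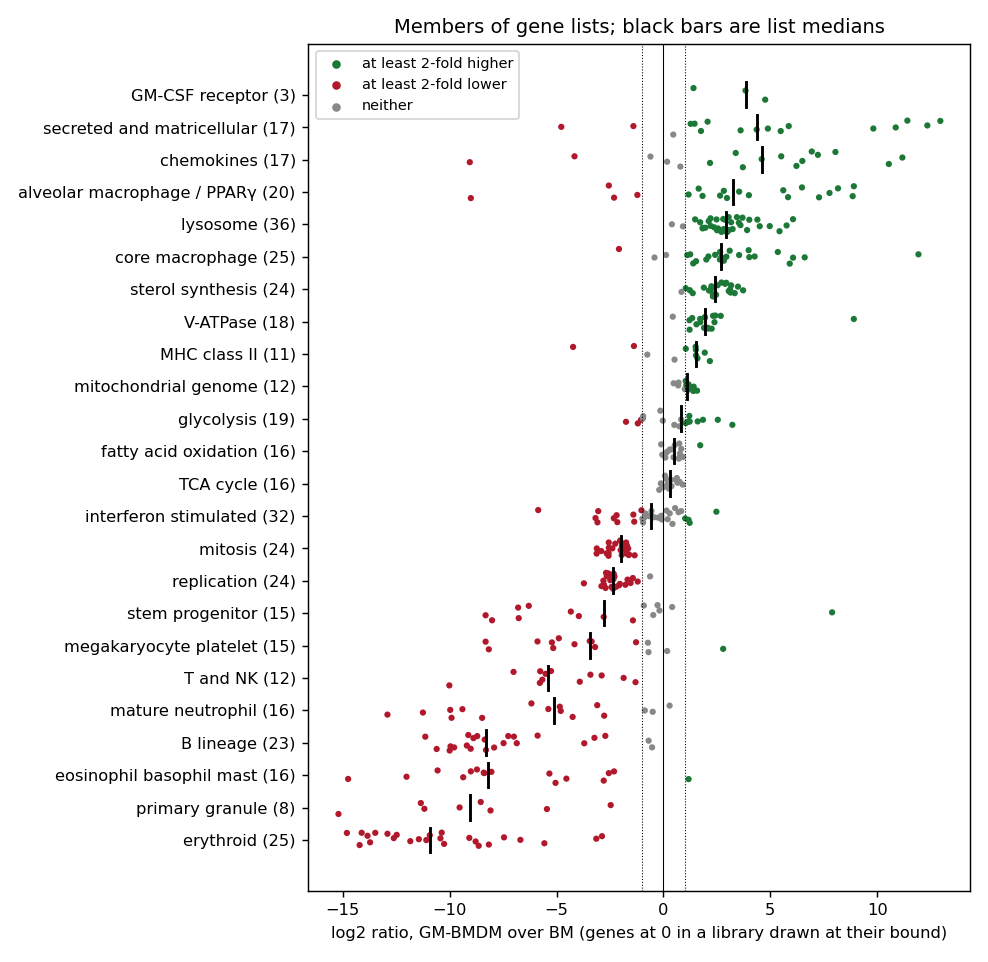
Log2 ratio of GM-BMDM over BM for the members of 24 gene lists that reached 5 CPM (points; number in brackets), with the list median as a black bar; genes with 0 counts in a library are drawn at their bound. The lysosomal list spans 0.40 to 6.06, and the erythroid list -14.80 to -2.87.

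Several secreted proteins had few or no counts in BM. Rbp4, the plasma retinol carrier, had 976 CPM in GM-BMDM and no count in BM, at least 7904-fold higher, and Ccn3, a matricellular protein, had 335 CPM in GM-BMDM and no count in BM, at least 2714-fold higher. M-BMDM had 0.43 CPM of Rbp4 and no count of Ccn3. Spint1, a protease inhibitor with 1 count in BM, had a log2 ratio of 12.34 (9.86 to 17.64), and 4.35 CPM in M-BMDM. Npy, neuropeptide Y with 2 counts in BM, had a log2 ratio of 10.86 (9.01 to 13.91). Its level was 153 CPM in GM-BMDM and 157 CPM in M-BMDM. Spp1 had 17075 CPM in GM-BMDM, 4460 CPM in M-BMDM and 19 CPM in BM. Of 18 genes of this list 17 reached 5 CPM, with 14 higher, 2 lower and 1 neither; the lower ones were Fn1, fibronectin (-1.40), and Sparc (-4.78), both also made by stroma.

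The matrix proteases stood on both sides. Of 18, 15 reached 5 CPM; 9 were higher, 3 lower and 3 neither. Mmp12, the macrophage elastase (chromosome 9, 7344381 to 7369499), had 11311 CPM in GM-BMDM, 462 CPM in M-BMDM and 1.11 CPM in BM, a log2 ratio over BM of 13.31 (12.77 to 13.92), the highest of the named genes with a count in both libraries. Mmp9, the gelatinase stored in neutrophil granules, had 3.36 CPM in GM-BMDM and 1193 CPM in BM, a log2 ratio of -8.47 (-8.82 to -8.14). Mmp8, the neutrophil collagenase, was neither, with 513 CPM in GM-BMDM, 9.61 CPM in M-BMDM and 860.4 CPM in BM. Mmp19, Mmp14, Mmp13 and Mmp2 were higher, with log2 ratios of 6.41, 4.27, 3.96 and 3.58, and Mmp25, of neutrophils, was lower (-4.85). Of these neutrophil enzymes, Mmp9 and Mmp25 were thus under 5 CPM in GM-BMDM and Mmp8 was not.

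Chemokine genes were mostly higher. Of 21, 17 reached 5 CPM; 12 were higher, 2 lower and 3 neither, and the list held 2.12% of the counts in GM-BMDM and 0.117% in BM. Ccl6 had 20973 CPM in GM-BMDM, 239 CPM in M-BMDM and 282 CPM in BM and made up most of that share. Cxcl3, which attracts neutrophils, had 95 CPM in GM-BMDM and a single count in BM, and Cxcl16, a lipid and T cell ligand, 203 CPM in GM-BMDM and 1.36 CPM in BM. The lower ones were Cxcl12, the retention signal made by marrow stroma, with 0.598 CPM in GM-BMDM and 318 CPM in BM, and Ppbp, of platelets (-4.16). Among 20 inflammatory genes, 15 reached 5 CPM, with 9 higher, 1 lower and 5 neither. Acod1, which makes itaconate, and Il1a were higher (6.45 and 5.36), Il1b was neither (0.56), and Lcn2, a neutrophil granule protein as well, was lower (-9.67).

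Genes of alternative activation, the state that IL4 induces, were mostly higher: of 18, 15 reached 5 CPM, with 12 higher, 2 lower and 1 neither. Arg1, arginase 1, had 101 CPM in GM-BMDM, 5.64 CPM in M-BMDM and 0.165 CPM in BM, a log2 ratio over BM of 9.26 (7.90 to 11.13). Mgl2, a galactose lectin, had 72.1 CPM in GM-BMDM, 1.13 CPM in M-BMDM and 11.8 CPM in BM. Retnla, a hallmark of the same state in mice, had 1 count in GM-BMDM and 2.88 CPM in BM, below the limit. The lipoxygenase Alox15 and Chil3 were lower (-8.86 and -1.22).

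Of 15 genes of cell fusion and osteoclasts, 12 reached 5 CPM, with 8 higher, 2 lower and 2 neither. Among them, Ctsk and Acp5 are also counted in the lysosomal list, and Atp6v0d2 in the alveolar and V-ATPase lists. Dcstamp, the fusion receptor, had 68.1 CPM in GM-BMDM and 0.288 CPM in BM, and Ctsk and Acp5, the bone-resorbing protease and phosphatase, had 114 and 329 CPM in GM-BMDM, 8.86 and 18.3 CPM in M-BMDM, and 19.3 and 71.4 CPM in BM. Itgb3 and Mmp9 were lower, both also genes of other marrow cells, and Calcr, Oscar and Ocstamp stayed below 5 CPM.

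Uptake receptors were mostly higher. Of 16 scavenger and dead-cell receptors, 15 reached 5 CPM and 12 were higher, 2 lower and 1 neither. Mfge8, a bridge to dying cells, had 3383 CPM in GM-BMDM, 124 CPM in M-BMDM and 12.3 CPM in BM, a log2 ratio over BM of 8.10 (7.94 to 8.27). The TAM receptors Tyro3, Mertk and Axl were all higher (5.69, 2.65 and 2.57). Cd5l, of resident macrophages, was lower, with 0.322 CPM in GM-BMDM and 38.4 CPM in BM. Fc receptors for IgG were higher, from 1.98 for Fcgr4 to 2.94 for Fcgr1, while Fcer1a, the mast cell IgE receptor, had no count in GM-BMDM.

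C-type lectins stood on both sides. Of the 15 in the table, 14 reached 5 CPM, with 7 higher, 5 lower and 2 neither. Clec4n, which encodes dectin-2, had 1051 CPM in GM-BMDM, 26.7 CPM in M-BMDM and 3.99 CPM in BM, a log2 ratio over BM of 8.04 (7.75 to 8.34), and its relatives Clec4d and Clec4e were higher too (2.98 and 2.38). Clec4a1, Clec4a2 and Clec4a3, receptors of the DCIR group, were lower (-3.42, -1.75 and -1.53). Clec12a, an inhibitory receptor for urate crystals, had 11.9 CPM in GM-BMDM, 329 CPM in M-BMDM and 283 CPM in BM.

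Of 35 interferon-stimulated genes, 32 reached 5 CPM; 4 were higher, 10 lower and 18 neither. The share counted, 43.8%, was near the 42.1% of all genes compared. With total counts 1 was higher and 15 lower. Isg20, an RNA-degrading enzyme, had 2.16 CPM in GM-BMDM and 125 CPM in BM. Rsad2 (viperin), with the motif printed above, had 17.6 CPM in GM-BMDM, 103 CPM in M-BMDM and 159 CPM in BM, a log2 ratio over BM of -3.18 (-3.33 to -3.02). Irf7, the factor that amplifies the response, had 6.58 CPM in GM-BMDM and 54.4 CPM in BM. The 4 higher ones were Gbp2 (2.48), Bst2 (1.23), Oas1a (1.18) and Usp18 (1.02), of which Gbp2 alone remained above 2-fold with total counts. Ifit1 and Mx1, both core members of the response, were neither. Ifit3 and Ifit3b are near-identical, so their counts are uncertain.

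Of 12 iron genes 6 were higher, 3 lower and 3 neither. Fth1 had 22337 CPM in GM-BMDM and 995 CPM in BM, and Ftl1 had 16020.4 CPM in GM-BMDM and 1462 CPM in BM. The transferrin receptor Tfrc, which brings iron into red cell precursors, had 49.9 CPM in GM-BMDM and 439 CPM in BM, and the exporter Slc40a1 (ferroportin) had 32.5 CPM in GM-BMDM and 187 CPM in BM. Both ferritin chains were thus higher and both surface transporters lower; the third lower gene was Steap4, a metalloreductase, with 0 counts in GM-BMDM and 14.4 CPM in BM. Of 16 genes under the antioxidant factor NRF2, 9 were higher, 3 lower and 4 neither. Slc7a11, the cystine importer, and Srxn1, sulfiredoxin, were higher (5.33 and 4.83), while Gclc, which starts glutathione synthesis, Gsr, which recycles it, and Gpx1, which uses it, were lower (-1.12, -1.63 and -1.19).

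Most genes of the other marrow lineages were lower. All 25 erythroid genes in the table were lower, with a median log2 ratio of -10.93. Hba-a2 had 1.89 CPM in GM-BMDM and 27582 CPM in BM, and Slc4a1, the anion exchanger band 3, had no count in GM-BMDM and 2441 CPM in BM, at least 17695-fold lower. Alas2, whose promoter is printed above, had 1 count in GM-BMDM and 1313 CPM in BM, a log2 ratio of -14.80 (-20.10 to -12.32). The least lowered were Fech (-2.87) and Tfrc (-3.14), which other cells use too.

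Neutrophil genes were lower at every stage of granule formation, with a few exceptions. All 8 primary granule genes that reached 5 CPM were lower. Mpo, myeloperoxidase, had 1 count in GM-BMDM and 1724 CPM in BM, a log2 ratio of -15.19 (-20.50 to -12.72). Of 16 genes of the later granules, 12 were lower, 1 was higher and 3 were neither: Ltf (lactoferrin) had 1.79 CPM in GM-BMDM and 5971 CPM in BM, and Camp, the cathelicidin, had 1 count in GM-BMDM and 2003 CPM in BM. The exceptions were Lyz2, Cybb, Mmp8 and Anxa1, of which Lyz2 and Cybb are also macrophage genes. Of 20 genes of mature neutrophils 16 reached 5 CPM; 13 were lower and 3, Trem1, Il1r2 and Fpr1, were neither. S100a8 and S100a9 had 8.88 and 4.55 CPM in GM-BMDM and 5992 and 11058 CPM in BM, and Retnlg had no count in GM-BMDM, at least 7672-fold lower. The mature neutrophil list held 0.018% of the counts in GM-BMDM and 2.28% in BM.

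Of 18 eosinophil, basophil and mast cell genes, 16 reached 5 CPM and 15 were lower. Prg2, the eosinophil major basic protein, had 2 counts in GM-BMDM and 2522 CPM in BM, and Epx, eosinophil peroxidase, had none in GM-BMDM, at least 4131-fold lower. Siglecf was the exception, with 59.2 CPM in GM-BMDM, 2.36 CPM in M-BMDM and 26.2 CPM in BM, a log2 ratio over BM of 1.18 (1.04 to 1.31); it marks eosinophils and alveolar macrophages. With total counts its log2 ratio was 0.85, below 2-fold.

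Of 24 B cell genes 23 reached 5 CPM, and 21 were lower. Cd79a, of the B cell receptor, had 0.092 CPM in GM-BMDM and 207 CPM in BM, and Rag1, the recombinase of precursors, had no count in GM-BMDM and 76.9 CPM in BM. Blnk and Cd22 were neither (-0.53 and -0.69). Of 16 T and NK cell genes 12 reached 5 CPM, and these 12 were lower. Nkg7, of cytotoxic cells, had 1 count in GM-BMDM and 47.4 CPM in BM.

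Of 15 megakaryocyte genes 11 were lower, 3 neither and 1 higher. The higher one was Vwf, von Willebrand factor, of platelets and endothelium, with 444 CPM in GM-BMDM, 171 CPM in M-BMDM and 64.1 CPM in BM. Of 18 stem and progenitor genes 15 reached 5 CPM, with 9 lower, 5 neither and 1 higher. Of 18 stromal and endothelial genes 16 reached it, with 14 lower, 1 neither and 1 higher. The higher ones were Procr, the protein C receptor of stem cells and endothelium, with 68.2 CPM in GM-BMDM and 0.288 CPM in BM, and Kdr, a VEGF receptor, with 20.6 CPM in GM-BMDM and 4.98 CPM in BM. Other endothelial genes did not stand with them: Pecam1 had 2.76 CPM in GM-BMDM and 66.1 CPM in BM, and Cdh5 had 4.05 CPM in GM-BMDM and 6.29 CPM in BM.

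**Figure D4:**
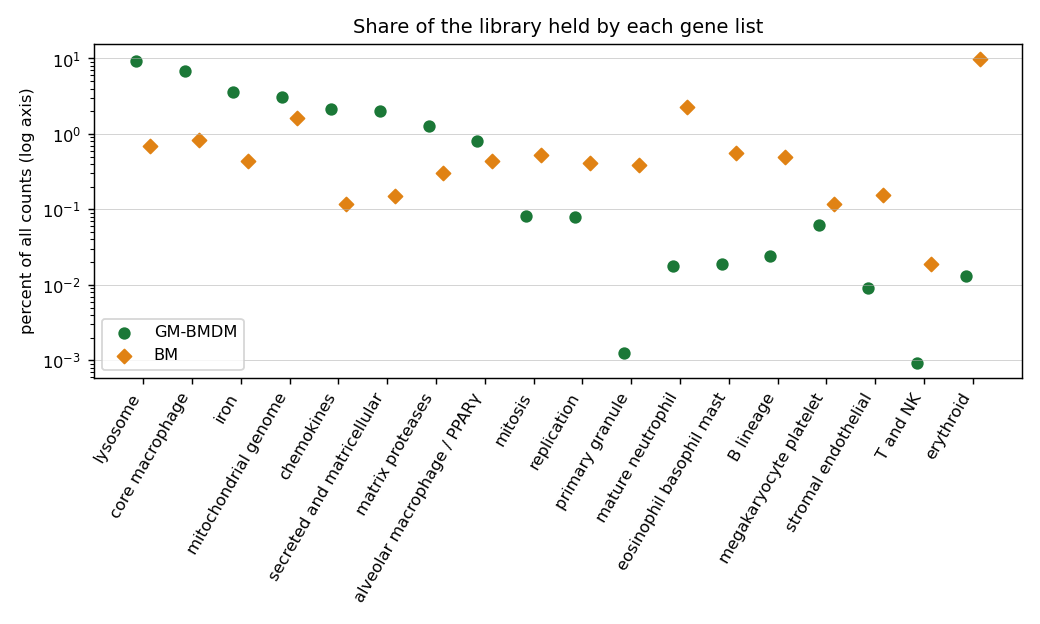
Percent of all counts (log axis) held by 18 gene lists in GM-BMDM (circles) and BM (diamonds), 1 library each. The lysosomal list stands at 9.16% in GM-BMDM and 0.693% in BM, and the erythroid list at 0.0133% in GM-BMDM and 9.79% in BM.

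The cell cycle genes were lower but not near 0. All 24 mitosis genes were lower, with log2 ratios from -3.12 to -1.35, and 23 of 24 replication genes were lower, Pcna being neither (-0.62). Mki67, the proliferation antigen, had 157 CPM in GM-BMDM, 126 CPM in M-BMDM and 1368 CPM in BM. Mcm2, of the replicative helicase, had 31.0 CPM in GM-BMDM and 231 CPM in BM. Both cultures thus stood below BM in Mki67.

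Cyclin kinase inhibitors stood on both sides, and none of the cyclins named here was counted as higher. Of 17, 15 reached 5 CPM, with 2 higher, 8 lower and 5 neither. Cdkn1a, which encodes p21, had 292 CPM in GM-BMDM and 9.05 CPM in BM, a log2 ratio of 5.01 (4.82 to 5.21), and Cdkn1c (p57) had a log2 ratio of 4.58 (4.13 to 5.08). Cdkn1b (p27), Cdkn2c and Cdkn2d were lower (-2.11, -2.05 and -2.75). Of the D cyclins, Ccnd3 had 51.6 CPM in GM-BMDM and 549 CPM in BM, while Ccnd1 and Ccnd2 were neither (0.43 and 0.33). Ccnd1 had 19.7 CPM in GM-BMDM, 569 CPM in M-BMDM and 14.6 CPM in BM.

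Genes of the nuclear envelope and the cytoskeleton also stood on both sides. Lmna, which encodes lamins A and C, had 273 CPM in GM-BMDM and 92.1 CPM in BM, while Lmnb1 (lamin B1) had 33.1 CPM in GM-BMDM and 306 CPM in BM, and the lamin B receptor Lbr 29.0 CPM in GM-BMDM and 409 CPM in BM. Among the beta tubulins, Tubb6 had 88.5 CPM in GM-BMDM and 2.92 CPM in BM, and Tubb1, the platelet form, 0.184 CPM in GM-BMDM and 52.8 CPM in BM. Ahnak2, a large scaffold protein, had 327 CPM in GM-BMDM and 0.37 CPM in BM. Among the actins and their partners, Actb, Flna and Tmsb4x were neither (0.41, -0.07 and -0.29), while Actg1 and Tmsb10 were higher (1.41 and 1.37). With total counts less haemoglobin and mitochondrial genes, Actg1 and Tmsb10 fell below 2-fold (0.96 and 0.92). Of 27 genes of this list, 12 were higher, 5 lower and 10 neither.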

How the data were processed

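RNA was sequenced from 6 mouse samples, 1 library per group. The deposited table gives estimated counts per gene, and 26.8% of the values above 0 in GM-BMDM and 27.7% in BM were not whole numbers. Per the submitters' processing notes, HISAT2, StringTie and DESeq2 were used with the GRCm38 build; versions, settings and any use of strand in counting were not given in the sources used here, so a gene and its antisense partner cannot be told apart. TPM was computed from these counts and the gene length deposited beside them.

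Of 56278 rows, 742 without a gene name were left out (0.255% of the counts in GM-BMDM, 0.522% in BM), and 27 symbols that had turned into dates took the symbol of the GENCODE annotation. Expected counts were rounded and scaled with TMM over the 6 libraries (edgeR 4.0.16, R 4.3.3), on genes with at least 1 CPM in any of them; the factors were 0.901 for GM-BMDM and 1.13 for BM. Exact Clopper-Pearson intervals at 95% came from the conditional binomial distribution (SciPy 1.17.1, Python 3.11.15). For a gene with 0 counts on a side, 3 counts there set a bound, which also enters list medians. The interval and the calls were checked on counts simulated with counting error alone and with known scaling factors. That check covers neither the scaling nor the spread between cultures.

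The comparison and the 44 gene lists were chosen with earlier results of these data known. The lists hold 726 genes, of which 723 are in the table, and Ahsp, Azu1 and Clec6a were not analysed here. Some genes are in several lists (815 entries in all), so the counts of different lists are not independent. Named genes are, among counted genes of 20 CPM or more, the 15 with the highest ratio and the 15 with the lowest, leaving out predicted, clone-based, pseudogene and antigen receptor names, the 10 genes with most counts in each library, every gene of the GM-CSF receptor, signalling and growth receptor lists, and, of each other list, up to 8 counted genes with the largest ratios and the genes that went against the list. Some genes that this rule names are not reported here. Other list members, and genes compared within a family, were chosen after their values were seen. Alternatives were DESeq2 1.42.0 size factors, total counts, upper-quartile factors, TMM on the pair, other limits of CPM and fold, no interval, a prior count of 2, and the GM-BMDM library after 3 h of IL6. Matching of motifs covered RefSeq promoters.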

Additional observations from a re-analysis of the deposited data

Results flagged for a closer look

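Here and in the next section, named genes are all list members and the genes with the most extreme ratios or most counts. The lists were chosen with earlier results of these data known. For 14 of the 678 named genes compared, the levels in GM-BMDM and in M-BMDM lay on opposite sides of BM. Each was at least 2-fold away with an interval that excluded no difference. The share over all genes was not computed. Both ratios use the same BM library and each rests on 1 library a side, and the difference between them was not tested. The set depends on the scaling: with total counts 10 of the 14 remained, without Clec9a, Igfbp4, Scd1 and Siglecf, and 5 others joined them; with upper-quartile factors 13 remained, without Xaf1. Values are log2 ratios over BM, with GM-BMDM given before M-BMDM.

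Of these, 9 were higher in GM-BMDM and lower in M-BMDM. Cish, the STAT5-induced inhibitor, had 4.88 in GM-BMDM and -2.62 in M-BMDM. Inhba, which encodes the activin A subunit, had 3.61 in GM-BMDM and -2.65 in M-BMDM. The cholesterol exporter Abcg1 had 2.97 in GM-BMDM and -1.56 in M-BMDM, and the lectin Mgl2 had 2.60 in GM-BMDM and -3.39 in M-BMDM. The osteoclast enzymes Ctsk and Acp5 had 2.56 and 2.20 in GM-BMDM, and -1.13 and -1.96 in M-BMDM. Clec9a, of cross-presenting dendritic cells, had 1.28 in GM-BMDM and -5.91 in M-BMDM. The desaturase Scd1 had 1.26 in GM-BMDM and -2.84 in M-BMDM. Siglecf, of alveolar macrophages and eosinophils, had 1.18 in GM-BMDM and -3.47 in M-BMDM.

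The other 5 were lower in GM-BMDM and higher in M-BMDM. The fractalkine receptor Cx3cr1 had -2.74 in GM-BMDM and 3.49 in M-BMDM. The lectin Clec4a1 had -3.42 in GM-BMDM and 2.30 in M-BMDM, and Cd72, an inhibitory receptor also found on B cells, had -2.72 in GM-BMDM and 1.52 in M-BMDM. Igfbp4, a binding protein for insulin-like growth factors, had -1.77 in GM-BMDM and 1.13 in M-BMDM. The interferon-induced gene Xaf1 had -1.03 in GM-BMDM and 1.31 in M-BMDM.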

How the results depend on the processing

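No paired analysis was possible because each group had 1 library. Among 4068 log2 ratios of 678 named genes under other scalings or with the IL6 library, none changed sign for a gene counted as higher or lower. Each scaling moved all ratios by the same amount, smaller than the 2-fold limit, so a change of sign was possible only with the IL6 library. Of the 4068 values, 2606 lay within the counting interval of the value reported and 1462 outside it. Of 531 named genes counted, 505 kept their call with total counts, 491 with total counts less haemoglobin and mitochondrial genes and 527 with upper-quartile factors. Counts moved by over 1.5 times under some limits. With a 4-fold limit, 1047 genes were higher and 1337 lower (2384 in all). With no limit on CPM, 3481 were higher and 4865 lower (8346 in all), out of 23214 genes. With at least 20 CPM, 1646 were higher and 1689 lower. With total counts less haemoglobin and mitochondrial genes, the median of all genes shifted by -0.47, and 1546 genes were higher and 3862 lower, so that 28.6% of the counted genes were higher. DESeq2 size factors gave 2275 higher and 2519 lower, upper-quartile factors 2404 and 2417. Of 572 list medians under the alternatives, 555 moved by less than 0.5 on the log2 scale and 17 by more. The fold limits and the interval do not enter a median, and each scaling moved all ratios by the same amount, under 0.5. Small moves under those alternatives were thus largely fixed in advance. Medians above 0 were found for 27 of 44 lists, and for 26 with either kind of total. The GM-BMDM library after 3 h of IL6, in place of that without, gave 2270 higher and 2616 lower. Depth limits genes with few counts, and culture-to-culture spread was not measured.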
